A study of Homo sapiens with 4 samples.

Results

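The genes named by WDR5 ChIP-seq peaks in the RS4;11 line were compared with those named in the THP-1 line. A gene was a member if its symbol stood beside at least 1 WDR5 peak in a line's peak list, which names every RefSeq gene whose exon or intron a peak touches or that lies within 20 kb of it. RS4;11 gave 873 genes from 703 distinct peaks, THP-1 gave 316 genes from 225, and together they made 1150 of the 18577 genes named in any of the 4 peak lists of the series. Of these, 834 were named in RS4;11 only, 277 in THP-1 only and 39 in both. Among 20136 protein-coding genes of the annotation these classes were 3.89%, 1.21% and 0.139%.

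The series held 4 libraries, 1 per line and antibody: WDR5 and trimethylated lysine 4 of histone H3 (H3K4me3) in each line. RS4;11 is a B-precursor acute lymphoblastic leukemia line and THP-1 a monocytic acute myeloid leukemia line, each carrying a rearranged MLL gene, and both were grown untreated in RPMI1640 with serum. The labels gave all WDR5 samples the lymphoblastic type and all H3K4me3 samples the myeloid type, so the lines were taken from the cell line label. As a check of that label, H3K4me3 peaks at gene 5′ ends were read for lineage markers: in RS4;11 and not THP-1 they covered CD22, CD79A and CD79B, among others, of the B lineage, and in THP-1 and not RS4;11 they covered the myeloid genes CSF3R, ELANE, ITGAM, S100A8 and S100A9. The markers did not all follow the line, since PAX5, EBF1, LEF1 and BLNK had the mark in THP-1 alone and the T-lineage gene LCK had it in RS4;11 alone. With 1 library per line no difference between the lines has a replicate check, and no test was made. The lists hold peak positions and gene flags without read counts or peak scores, so the depth behind a peak is unknown and a gene missing from a list was not detected as a peak gene, which does not show that WDR5 was absent there. THP-1 had no WDR5 peak on chromosome 14 and 1 on the X chromosome. Whether its list is complete is not known, and genes missing from it would be counted here as RS4;11-only and would lower the shared count. RS4;11 had 3.12 times the peaks and 2.76 times the genes of THP-1.

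WDR5 is a WD-repeat protein that forms a core, with RBBP5, ASH2L and DPY30, of the complexes in which the MLL and SET1 enzymes methylate lysine 4 of histone H3. H3K4me3 marks the promoters of active genes, and WDR5 also contacts MYC and the KANSL acetyltransferase complex. In leukemias with a rearranged MLL gene the HOXA cluster and MEIS1 are the classical targets of the fusion protein.

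Before the genes, the sequences below show what lay under the peaks that both lines shared and under some that 1 line had alone. They were read from GRCh37 (hg19), plus strand, 5′ to 3′, around the centre of a peak unless stated otherwise. The first pair was shown because both lines had a peak there. Capitals mark the bases that differed from the mitochondrial genome of the same assembly. The MIR1977 position was chr1:565651-565890 and the PCBD2 position, in an intron of that gene, was chr5:134259968-134260207.
MIR1977 position: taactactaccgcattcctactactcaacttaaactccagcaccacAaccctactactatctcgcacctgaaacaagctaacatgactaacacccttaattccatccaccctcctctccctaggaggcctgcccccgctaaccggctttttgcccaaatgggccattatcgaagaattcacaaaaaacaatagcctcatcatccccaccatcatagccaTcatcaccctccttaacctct
PCBD2 position: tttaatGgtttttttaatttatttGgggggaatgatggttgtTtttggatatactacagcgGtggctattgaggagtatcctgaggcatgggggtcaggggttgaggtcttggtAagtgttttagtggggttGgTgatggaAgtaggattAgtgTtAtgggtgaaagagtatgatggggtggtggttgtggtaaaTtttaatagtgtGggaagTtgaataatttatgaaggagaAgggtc
Of the 240 bases printed, 2 differed from the mitochondrial genome at the MIR1977 position and 15 at PCBD2.

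The next pair came from the RS4;11 peak downstream of ROCK1 that THP-1 also had. They are neighbouring units of 171 bp at chr18:18512157-18512327 and chr18:18512328-18512498, the most alike neighbours inside that peak, and capitals mark the bases at which they differed.
ROCK1 unit 1: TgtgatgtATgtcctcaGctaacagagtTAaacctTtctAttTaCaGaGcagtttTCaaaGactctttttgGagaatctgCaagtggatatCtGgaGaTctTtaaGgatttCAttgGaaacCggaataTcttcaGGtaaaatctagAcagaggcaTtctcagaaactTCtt
ROCK1 unit 2: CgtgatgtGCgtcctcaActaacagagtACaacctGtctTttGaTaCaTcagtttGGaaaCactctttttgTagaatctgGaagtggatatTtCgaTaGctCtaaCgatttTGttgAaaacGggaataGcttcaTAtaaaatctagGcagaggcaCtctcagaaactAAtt
The units were identical at 137 of 171 bases (80.1%).

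Peaks of both lines also lay upstream of MAMDC2. Capitals mark GAATG in the stretch chr9:72653200-72653349.
MAMDC2 position: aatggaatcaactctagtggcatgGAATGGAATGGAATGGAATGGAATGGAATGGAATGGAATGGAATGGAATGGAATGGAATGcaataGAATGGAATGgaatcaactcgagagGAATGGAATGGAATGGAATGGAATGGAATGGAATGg
GAATG stood 61 times in the 528 bp RS4;11 peak at MAMDC2.

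The last group came from peaks of 1 line. RBM22 and PIGK had a peak at the 5′ end in RS4;11 only, RPL35A and ROBO1 in THP-1 only, and the SPON1 intron peak of THP-1 was shown for its base composition. Capitals mark CG dinucleotides. The positions were chr5:150080368-150080607, chr1:77684753-77684992, chr3:197677262-197677501, chr3:79816811-79817050 and chr11:14182608-14182727, in that order.
RBM22 5′ end: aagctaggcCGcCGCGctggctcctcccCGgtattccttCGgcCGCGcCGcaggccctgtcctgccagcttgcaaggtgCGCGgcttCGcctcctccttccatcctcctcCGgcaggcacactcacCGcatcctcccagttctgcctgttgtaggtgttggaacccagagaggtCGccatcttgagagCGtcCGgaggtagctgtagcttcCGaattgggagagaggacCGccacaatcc
PIGK 5′ end: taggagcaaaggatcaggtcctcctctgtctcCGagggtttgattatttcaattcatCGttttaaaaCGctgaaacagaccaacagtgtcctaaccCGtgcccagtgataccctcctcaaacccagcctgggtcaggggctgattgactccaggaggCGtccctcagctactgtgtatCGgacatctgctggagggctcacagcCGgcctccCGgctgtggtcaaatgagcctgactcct
RPL35A 5′ end: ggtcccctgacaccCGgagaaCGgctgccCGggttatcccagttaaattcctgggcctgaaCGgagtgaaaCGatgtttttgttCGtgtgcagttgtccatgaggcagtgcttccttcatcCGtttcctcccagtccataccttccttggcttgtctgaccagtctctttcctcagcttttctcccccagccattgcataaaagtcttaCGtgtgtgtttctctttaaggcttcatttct
ROBO1 5′ end: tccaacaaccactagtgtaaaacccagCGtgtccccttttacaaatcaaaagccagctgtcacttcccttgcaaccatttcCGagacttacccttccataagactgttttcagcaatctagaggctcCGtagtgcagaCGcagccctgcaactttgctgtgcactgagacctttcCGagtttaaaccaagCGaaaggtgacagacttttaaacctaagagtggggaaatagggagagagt
SPON1 position: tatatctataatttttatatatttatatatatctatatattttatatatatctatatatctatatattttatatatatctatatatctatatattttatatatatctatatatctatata
The RBM22 stretch held 18 CG dinucleotides, PIGK and RPL35A 8 each, ROBO1 6 and SPON1 0.

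Very few genes were WDR5 genes in both lines. The 39 shared genes were 4.47% of the RS4;11 genes (95% Wilson interval 3.28 to 6.05%) and 12.3% of the THP-1 genes (9.16 to 16.4%). The intervals here and below cover counting error only, and genes named by 1 peak are not independent. Of all protein-coding genes, RS4;11 named 4.03% and THP-1 named 1.35%. The THP-1 genes included a larger share of transcripts without a protein: 42 of its genes (13.3%) had noncoding accessions alone, against 51 in RS4;11 (5.84%). Few peaks made much of that share, since 14 were SNAR small RNAs on 2 peaks and 8 were SNORD small nucleolar RNAs on 1 peak. A peak touched an exon or intron of 490 RS4;11 genes (56.1%) and of 150 THP-1 genes (47.5%), and the other genes were named through a flank.

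The shared genes fell into 2 kinds. For 17 of them the peaks of the lines overlapped, and for 22 each line had its own position. The 17 genes came from 13 pairs of overlapping peaks, which were 1.85% of the RS4;11 peaks and 5.78% of the THP-1 peaks. In 12 of the 17 genes the overlap was at least 95% of the smaller peak.

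**Figure D1:**
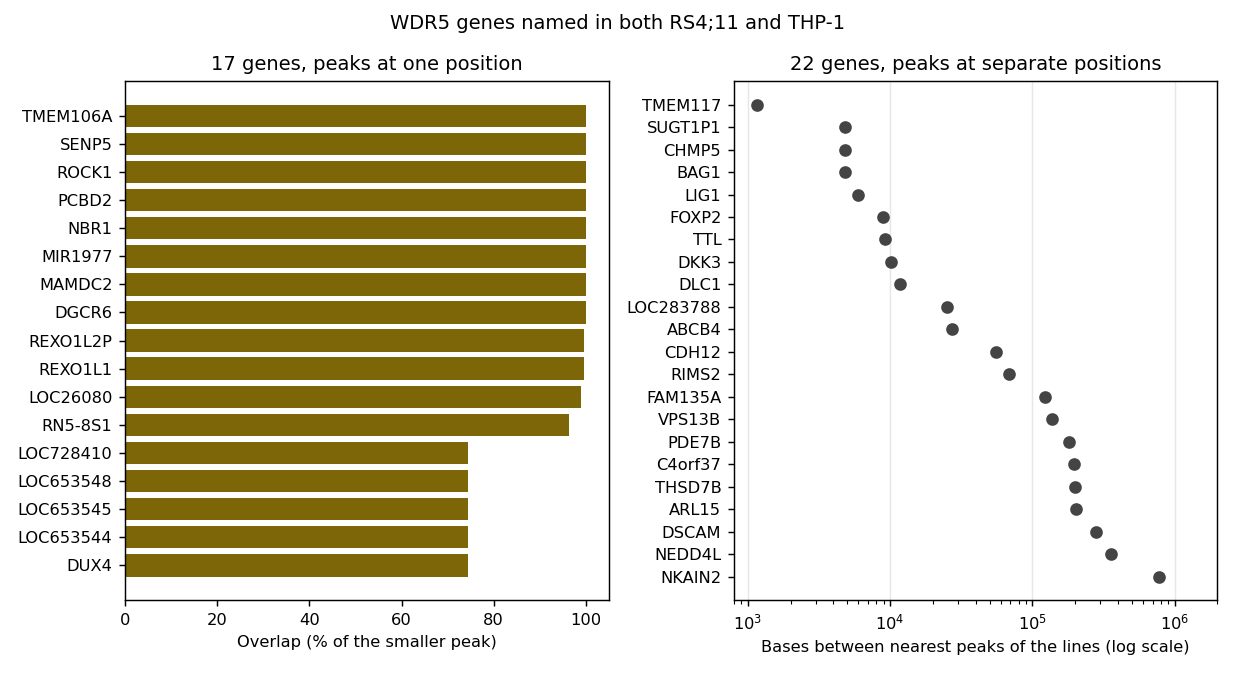
The 39 genes named by WDR5 peaks in both lines. Left, overlap of the nearest peaks as a percent of the smaller peak for the 17 genes with peaks at one position. Right, bases between the nearest peaks of the lines, on a log scale, for the other 22, from 1165 at TMEM117 to 777010 at NKAIN2.

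ROCK1, a kinase that acts on the actin cytoskeleton, had 3 peaks in RS4;11 and 2 in THP-1, and a pair from each line lay together downstream of the gene near the chromosome 18 centromere. The RS4;11 peaks there were chr18:18511721-18512577 and chr18:18512740-18513278, and the THP-1 peaks were chr18:18510904-18512633 and chr18:18512715-18513333. All 4 were most like themselves at a shift of 171 bp, with 55.4 to 60.3% of bases identical at that shift. The remaining RS4;11 peak of ROCK1, over an exon at chr18:18548351-18548762, had no THP-1 peak.

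MIR1977, a small RNA gene near the start of chromosome 1, had a pair of shared peaks, and PCBD2, which encodes a dimerization cofactor of HNF1, had 1. The MIR1977 peaks of the RS4;11 line aligned to the mitochondrial genome at 98.7% and 98.2% identity over 100% of their length, and those of THP-1 at 98.3% and 98.2%, over 100% and 96.3% of their length. The PCBD2 peaks, 673 bp in RS4;11 and 641 bp in THP-1, aligned at 95.2% and 95%. None of the other WDR5 peaks aligned to it: 3 of 703 peaks did in RS4;11 and 3 of 225 in THP-1.

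The other shared positions were upstream of DGCR6 (chr22:18879725-18880226 in RS4;11), upstream of MAMDC2, in SENP5, which encodes a SUMO protease, downstream of NBR1 and TMEM106A (chr17:41381728-41382523), downstream of REXO1L1 and REXO1L2P on chromosome 8, and on 3 unplaced sequences that carry LOC26080, the ribosomal RNA gene RN5-8S1 and DUX4 with its LOC neighbours. The RS4;11 peak at REXO1L1 had 10 copies in the reference and that at LOC26080 had 24, where a copy was a genome match with 95% identity or more that covered 80% or more of the peak, the peak itself included. NBR1, an autophagy receptor, and TMEM106A shared a peak with 1 copy, as did SENP5.

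Repeated sequence was measured in every peak by 3 features: at least 2 copies, an alignment to the mitochondrial genome, or at least 60% identity of the 1000 bp window to itself at a shift of 2 to 400 bp. At the positions of both lines 1 or more of these features stood in 8 of the 13 peaks of RS4;11 (61.5%) and in 6 of the 13 of THP-1 (46.2%). At positions of 1 line the counts were 7 of 690 (1.01%, 95% Wilson interval 0.492 to 2.08%) in RS4;11 and 17 of 212 (8.02%, 5.07 to 12.5%) in THP-1. Without these peaks 28 shared genes were left, and 6 of them had overlapping peaks: NBR1, TMEM106A, SENP5, DGCR6, MAMDC2 and ROCK1. These 6 were not all free of repeats, since some only fell below the 60% cut-off. In RS4;11 the identity was 52.2% at a shift of 5 bp for MAMDC2 and 46.8% at 16 bp for DGCR6. For the second ROCK1 peak it was 55.4% at 171 bp. The part of sequence copies in the shared peaks was not tested beyond these counts.

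H3K4me3 did not mark the shared positions uniformly. The WDR5 peak overlapped an H3K4me3 peak of its own line in both lines at 5 of the 13 pairs, namely the MIR1977 pair, NBR1 with TMEM106A, the second ROCK1 pair and SENP5, and in neither line at 5. MAMDC2, DGCR6 and DUX4 had it in THP-1 alone.

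The 22 genes named from separate positions were mostly long genes. Their median span was 473945 bp (20 genes with a span), beside 27210 bp over all protein-coding genes, and 13 were longer than 300 kb. The median distance between the nearest peaks of the lines was 41367 bp, and in 15 of the 22 both peaks lay inside the gene. No RS4;11 peak at these genes overlapped RS4;11 H3K4me3, and 2 THP-1 peaks overlapped THP-1 H3K4me3, at FAM135A and C4orf37.

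TMEM117 had the closest separate peaks, 1165 bp apart in an intron: chr12:44690963-44691375 in RS4;11 and chr12:44692541-44692925 in THP-1. BAG1, a co-chaperone, CHMP5, a subunit of the membrane-remodelling ESCRT machinery, and SUGT1P1 were named by the same peaks 4855 bp apart on chromosome 9. The THP-1 peak of these (chr9:33264864-33265295) was centred 202 bp inside the 5′ end of CHMP5 and overlapped H3K4me3 of RS4;11 and not of THP-1. LIG1, the DNA ligase of replication, followed at 5982 bp, then the transcription factor FOXP2 at 8974 bp, the tubulin tyrosine ligase TTL at 9199 bp, the Wnt inhibitor DKK3 at 10167 bp and DLC1 at 11805 bp.

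The adhesion genes CDH12 and DSCAM were far from sharing a site. CDH12, a cadherin, had intron peaks at chr5:21767044-21767546 and chr5:22323530-22323920 in RS4;11 and at chr5:21823027-21823486 in THP-1, with 55480 bp between the nearest. DSCAM, an immunoglobulin-type adhesion molecule, had peaks 280794 bp apart. NEDD4L, a ubiquitin ligase, had them 355091 bp apart and NKAIN2 had the farthest, 777010 bp.

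In the peak lists, the 7 genes that the study took up as WDR5 targets were split between the lines with none shared. That split does not make them line-specific. By quantitative ChIP the paper reports WDR5 at their promoters, PIGK aside, in other B-ALL and AML cell lines and in primary cells. It also reports lower LYN and BCL9 expression after WDR5 knockdown in both RS4;11 and THP-1. They were chosen in the study with these samples in hand, so their presence here is not independent evidence. BCL9, CD93, MED24, PIGK, RAB28 and RBM22 were named in RS4;11 only, and LYN in THP-1 only. LYN, a Src-family kinase, had its peak at chr8:56788712-56789120, with its centre 3478 bp upstream of the gene's 5′ end. Throughout, a gene's 5′ end is the outermost one annotated in GENCODE, so a peak at an inner start counts as inside the gene. The flags of the peak lists rest on RefSeq transcripts and can differ from it. No H3K4me3 peak overlapped it, and the nearest lay 1989 bp away in RS4;11 and 2412 bp away in THP-1.

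CD93, a C-type lectin-like receptor of myeloid and progenitor cells, had its RS4;11 WDR5 peak centred 3 bp inside the 5′ end (chr20:23066747-23067170). All 424 bp of that peak lay under RS4;11 H3K4me3, and the nearest THP-1 H3K4me3 peak was 262680 bp away. Among the targets it was the one with the mark at the WDR5 peak in 1 line alone.

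RBM22, a splicing factor, and PIGK, a subunit of the enzyme that attaches GPI anchors, had RS4;11 peaks 152 bp and 243 bp inside the 5′ end. H3K4me3 of both lines covered both peaks completely. RAB28, a small GTPase, had 1 peak 594 bp inside the 5′ end with H3K4me3 of both lines and another 53837 bp inside with none. MED24, a Mediator subunit, had a peak over an exon and intron, 6875 bp inside the outermost annotated 5′ end, also under H3K4me3 of both lines. That distance does not show whether a shorter transcript starts nearer to the peak. BCL9, a coactivator of beta-catenin, had its peak 1663 bp upstream, 411 bp from the nearest RS4;11 H3K4me3 peak and 58792 bp from the nearest in THP-1.

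WDR5 peaks centred within 1000 bp of a gene's 5′ end were a small class in both lines. Membership depends on the use of the outermost annotated end. There were 34 such genes among those of RS4;11 only and 14 among those of THP-1 only. Of the 34, 20 had H3K4me3 of both lines over the peak, 2 of RS4;11 alone, 1 of THP-1 alone and 11 of neither. Of the 14, 6 had both, 3 THP-1 alone and 5 neither. Most genes with WDR5 at the 5′ end in 1 line therefore had H3K4me3 there in both lines or in none.

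**Figure D2:**
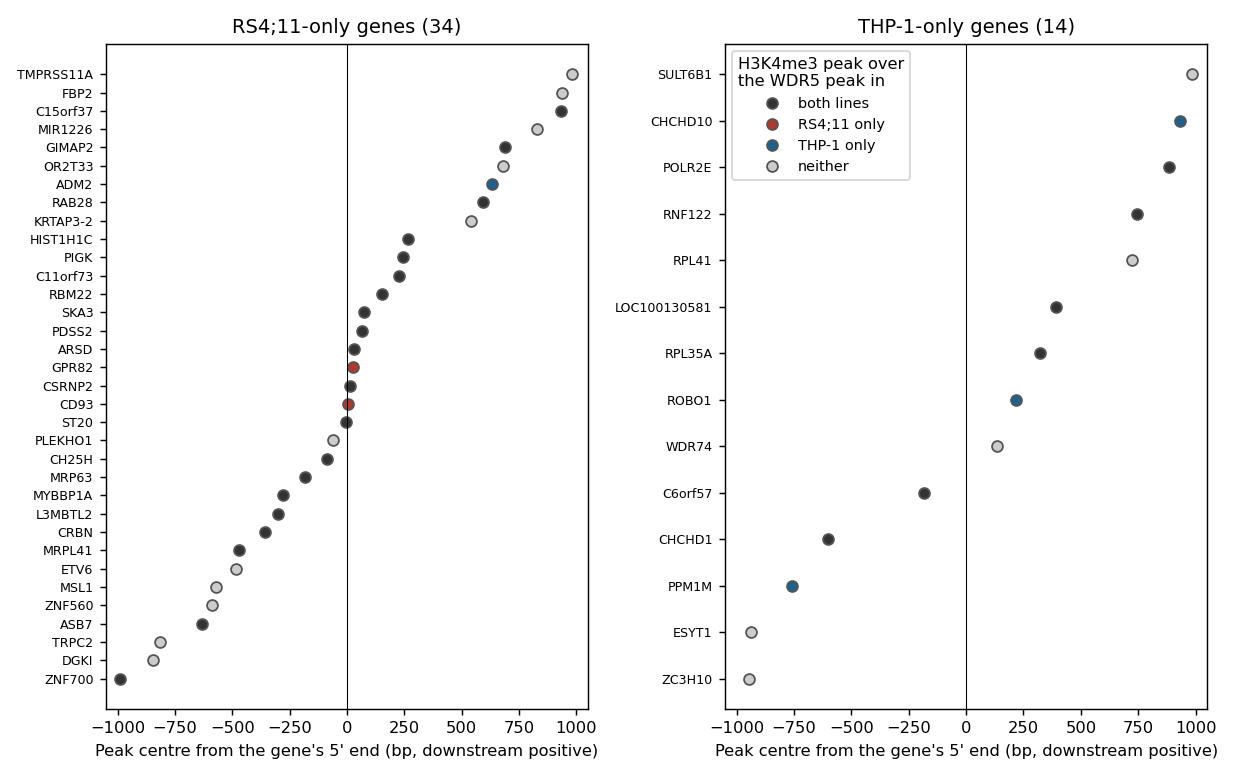
Distance of the WDR5 peak centre from the 5′ end of the gene, in bp with downstream positive, for the 34 RS4;11-only genes and the 14 THP-1-only genes within 1000 bp. Colour gives the line whose H3K4me3 peaks overlap the WDR5 peak. CD93 and GPR82 are the genes with RS4;11 H3K4me3 alone.

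In RS4;11 the centres nearest to a 5′ end belonged to CD93, ST20 (4 bp upstream of it), CSRNP2 (15 bp inside), GPR82 (25 bp), ARSD (31 bp), PLEKHO1 (61 bp upstream) and PDSS2 (67 bp). PDSS2 makes the isoprenoid chain of coenzyme Q, and SKA3, with its centre at 76 bp, is a kinetochore protein that shared its peak with the mitochondrial ribosomal gene MRP63. CH25H, the cholesterol 25-hydroxylase, had its peak 85 bp upstream and C11orf73 had its peak 226 bp inside. GPR82, an orphan receptor on the X chromosome, stood with CD93 as the pair with RS4;11 H3K4me3 alone. PLEKHO1 had no H3K4me3 at its peak in either line.

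In THP-1 the nearest centres were at WDR74, a ribosome assembly factor (133 bp inside), C6orf57 (183 bp upstream), ROBO1, a receptor for the guidance cue SLIT (218 bp), RPL35A (320 bp), LOC100130581 (393 bp) and CHCHD1 (601 bp upstream). The peak list itself flagged the WDR74 peak as upstream. ROBO1, PPM1M and CHCHD10 had H3K4me3 of THP-1 alone at the peak, though RS4;11 H3K4me3 lay only 165 bp from the PPM1M peak. RPL35A, C6orf57, CHCHD1, RNF122, POLR2E and LOC100130581 had it in both lines. WDR74, RPL41 and ESYT1 had it in neither.

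Peaks near a 5′ end differed in composition from the others. Their median GC content was 56.5% in RS4;11 (32 peaks) and 51.1% in THP-1 (14 peaks), beside 40.0% and 38.3% in the remaining peaks. The median observed-to-expected CpG ratio was 0.552 and 0.518 near a 5′ end and 0.173 and 0.184 elsewhere. The lowest GC content in THP-1 was 3.27%, at a peak naming the lymphocyte receptor S1PR1, and the SPON1 intron peak followed with 3.94%.

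H3K4me3 of both lines named 81.9% of the RS4;11-only genes and 81.2% of the THP-1-only genes, beside 61.5% of all protein-coding genes. Over all symbols of the 4 lists it was 82.2%. That value is no independent baseline, because only 0.441% of those symbols were in neither H3K4me3 list. Of the 834 RS4;11-only genes 86.5% were named in the RS4;11 H3K4me3 list and 88.5% in that of THP-1. Of the 277 THP-1-only genes the shares were 83.0% and 90.3%. Over all protein-coding genes they were 65.1% and 69.6%, and over all symbols of the 4 lists 87.9% and 93.9%. At the WDR5 peak itself H3K4me3 was much rarer: 58 of 703 RS4;11 peaks (8.25%, 95% Wilson interval 6.44 to 10.5%) overlapped RS4;11 H3K4me3 and 27 of 225 THP-1 peaks (12%, 8.38 to 16.9%) overlapped THP-1 H3K4me3.

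H3K4me3 of 1 line alone lay at 35 RS4;11 peaks and 13 THP-1 peaks. In RS4;11 such peaks with the mark of RS4;11 alone named MCM3, a replication helicase subunit, CBFA2T3, a corepressor of the ETO family, SPRED2, an inhibitor of Ras signalling, and S100B. The mark of the other line could still lie close by: THP-1 H3K4me3 was 29 bp from the MCM3 peak, against 3156 bp at CBFA2T3, 3962 bp at SPRED2 and 11859 bp at S100B. The mark of THP-1 alone lay at RS4;11 peaks that named JUND and DPF3. In THP-1, 1 peak with the mark of THP-1 alone named WDR82, PPM1M, TLR9 and TWF2 together, and another named 6 genes including SMARCB1, MMP11 and VPREB3. RS4;11 H3K4me3 lay 165 bp from the first of these peaks and 4877 bp from the other. These genes were picked after their values were seen.

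Genes with several WDR5 peaks were nearly all RS4;11 genes. At least 2 distinct peaks were found at 54 RS4;11 genes (6.19%) and 8 THP-1 genes (2.53%), and among protein-coding genes this was 0.243% and 0.0199%. The 54 genes rested on 47 different sets of peaks. Of the 54, 47 had no THP-1 peak, beside 95.5% of all RS4;11 genes. For 32 of the 54 no peak overlapped H3K4me3 of either line, beside 87.6% of the RS4;11-only genes. Both shares were lower among the genes with several peaks, which was largely set in advance. A gene with more peaks has more chances of an overlap or of a THP-1 peak. The 87.6% also leaves out shared genes, which the 54 include. The first and last peak centres of a gene were a median of 41034 bp apart.

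In RS4;11, 5 genes had 3 peaks: ADM2, MIOX, CSMD3, PCNX and ROCK1. ADM2, a peptide hormone gene, and MIOX, the inositol oxygenase, are neighbours on chromosome 22 and were named by the same 3 peaks (chr22:50920393-50920816, chr22:50929063-50929433 and chr22:50939019-50939366). The first of these overlapped H3K4me3 of THP-1 alone and the second that of RS4;11 alone. CSMD3, a very long gene of 1214012 bp, had its peaks spread over 379753 bp with no H3K4me3. PCNX had 1 peak in a flank, 1 over an exon and 1 in an intron, also without H3K4me3.

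With 2 peaks in RS4;11 came the kinase gene ADK, AGPAT9, ANK2, an ankyrin, the GTPase-activating genes ARHGAP25 and ARHGAP6, ASTN1 and C15orf37 among the first in alphabetical order. The peaks lay 206081 bp apart in ADK, 5893 bp in ANK2, 14800 bp in ARHGAP25, 297385 bp in ARHGAP6 and 284900 bp in ASTN1. C15orf37 shared its pair of peaks with ST20, and both genes had H3K4me3 of both lines at 1 of them.

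In THP-1 the most peaks, 5, fell on REXO1L1 and REXO1L2P, copies of an exonuclease-like gene in an array on chromosome 8, across 218290 bp. Since the array holds near-identical copies, the number of sites is uncertain. C5orf36, LOC283788, MIR1977, RN5-8S1, ROCK1 and SPON1 had 2 each, and C5orf36 and SPON1 had no RS4;11 peak. C5orf36 was the only one with every peak inside the gene.

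Several family counts came mostly from 1 peak. In RS4;11 1 peak (chr5:140902752-140902978) named DIAPH1, an actin-nucleating formin, and 22 clustered protocadherin gamma genes, which share a 3′ end. In THP-1 1 peak (chr19:50639096-50639930) named 14 genes, 13 of them SNAR small RNAs, and it had 17 copies in the reference. Another THP-1 peak (chr11:62608895-62609402) named 12 genes: WDR74, SNHG1, 8 SNORD small nucleolar RNAs hosted by SNHG1, SLC3A2 and STX5. None of these 3 peaks overlapped H3K4me3 of either line.

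**Figure D3:**
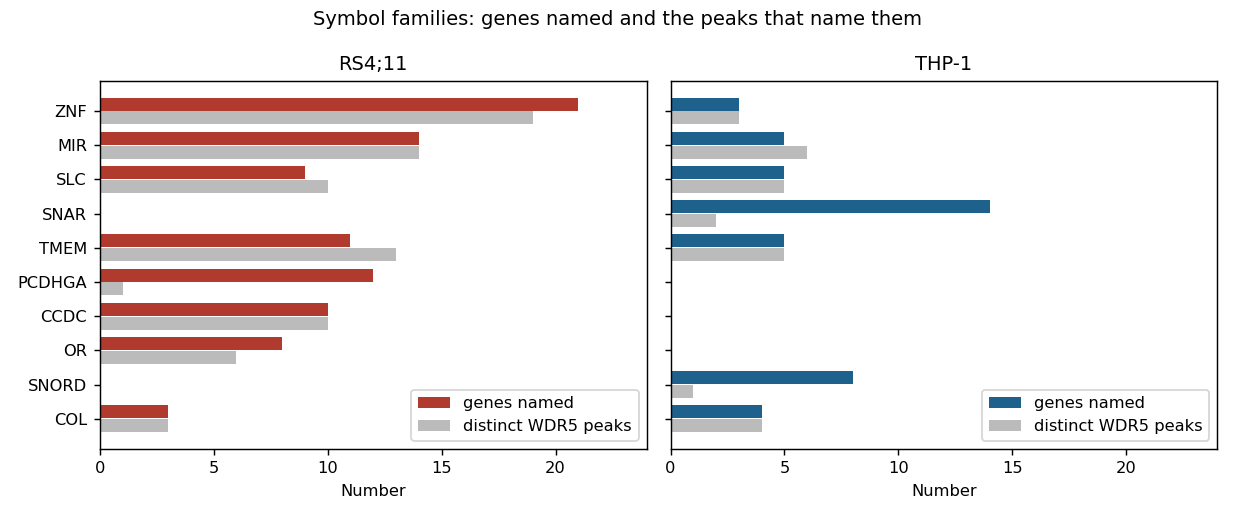
Genes named (coloured) and distinct WDR5 peaks naming them (grey) for the 10 largest symbol families. PCDHGA stood for 12 RS4;11 genes on 1 peak, SNAR for 14 THP-1 genes on 2 peaks, and ZNF for 21 RS4;11 genes on 19 peaks.

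Counted by family, ZNF zinc finger genes led in RS4;11 with 21 genes on 19 peaks against 3 genes on 3 peaks in THP-1. These were 4.26% and 0.609% of the 493 ZNF symbols in the 4 lists, beside 4.7% and 1.7% over all symbols, so ZNF genes were named near the general rate in RS4;11. TMEM genes numbered 11 and 5 (5.09% and 2.31% of their symbols) and SLC transporters 9 and 5 (2.88% and 1.6%). CCDC genes numbered 10 (6.85%) and 0, and olfactory receptors 8 (on 6 peaks) and 0. The 8 were 1.89% of 423 olfactory receptors, below the 4.03% of all protein-coding genes, and all were named through a flank. SNAR and SNORD genes were named in THP-1 and not in RS4;11, and collagens numbered 3 and 4 (7.14% and 9.52%).

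The gene lists gave the following, each read against 4.03% of protein-coding genes for RS4;11 and 1.35% for THP-1. Of 26 lists, 20 had the higher share in RS4;11, 3 in THP-1 and 3 were equal. RS4;11 named more genes of any kind, so this tally was largely set in advance and is no evidence on single lists. No member was named in 11 lists in THP-1 and in 4 lists in RS4;11. At 1.35%, a short list readily has 0 members named. Some genes stand in more than 1 list.

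**Figure D4:**
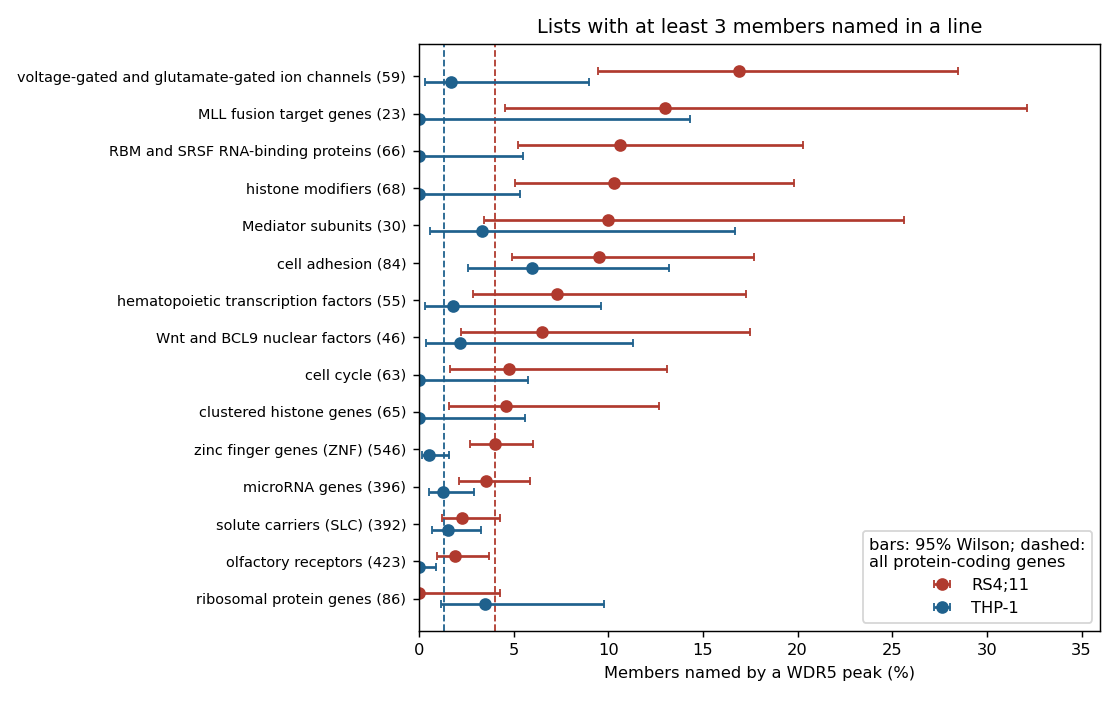
Percent of list members that WDR5 peaks named in either line, for lists with at least 3 members named, with 95% Wilson intervals for counting error and the number of members in parentheses. Dashed lines give the 4.03% (RS4;11) and 1.35% (THP-1) of all protein-coding genes. The ion channels stand highest in RS4;11 at 16.9%.

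Voltage-gated and glutamate-gated ion channels, which set the excitability of neurons, had the highest share in RS4;11 after the study's targets: 10 of 59 (16.9%) against 1 of 59 in THP-1 (1.69%). They included CACNB2, GRID1, GRIK4, GRIN2B, GRM8, KCNC2, KCNH8, KCNQ5 and SCN2A, and the THP-1 gene was KCNB2. None of the 12 RS4;11 peaks overlapped RS4;11 H3K4me3, and the median span of the 10 genes was 443558 bp. GRID1 and GRIK4 had 2 peaks each.

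Cell adhesion genes were named at 8 of 84 (9.52%) in RS4;11 and 5 of 84 (5.95%) in THP-1. CDH12 and DSCAM were in both, CADM2, CDH17, CNTN5, CNTNAP2, ICAM1 and PCDH10 in RS4;11, and CDH8, CNTNAP4 and PCDH15 in THP-1. ICAM1, the leukocyte adhesion ligand, was the one with H3K4me3 at its peak, of both lines, 1201 bp upstream. The median span was 969415 bp in RS4;11 and 836159 bp in THP-1.

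Of 68 histone modifiers in the list, RS4;11 named 7 (10.3%, 95% Wilson interval 5.08 to 19.8%) and THP-1 named 0, which leaves an interval of up to 5.35% that holds the 1.35% of all protein-coding genes. The difference was not tested. The median span of the 7 named genes was 168384 bp. In the longest of 4 equal groups by span, RS4;11 named 8.94% of all protein-coding genes. The members named were the deacetylases HDAC1, HDAC4 and HDAC9, the demethylase KDM4B and the methyltransferases NSD1, SETD2 and SETDB1. HDAC1 and SETDB1 were named from flanks, 5635 bp and 11017 bp upstream, the others from introns, and none of the 7 peaks overlapped RS4;11 H3K4me3. The list does not hold HDAC8, HAT1 and SMYD3, which RS4;11 intron peaks also named and which were picked after their values were seen. HDAC1 shared its peak with LCK, a T-lineage gene that lies before it.

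The WDR5 and H3K4 methyltransferase complex genes had 1 of 23 in each line, MLL3 (KMT2C) in RS4;11 and WDR82 in THP-1. The MLL3 peak (chr7:151967572-151968007) had 2 copies in the reference. Among the MLL fusion targets 3 of 23 were named in RS4;11 and 0 in THP-1: CDK6, JMJD1C and MEIS1, each without H3K4me3 at the peak. No HOX cluster gene of 39 was named in either line, though 39 of 39 were named in at least 1 of the 4 lists.

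The lineage lists are short, so their shares are imprecise. No monocytic marker of 18 was named in either line. Of 16 B-lineage genes, RAG1 was named in RS4;11 (6.25%, 95% Wilson interval 1.11 to 28.3%) and EBF1 and VPREB3 in THP-1 (12.5%, 3.50 to 36%). Of 8 T-lineage genes LCK was named in RS4;11 (12.5%). Among 55 hematopoietic transcription factors RS4;11 had ETV6, IKZF2, LYL1 and MEIS1 (7.27%), and THP-1 had MECOM (1.82%).

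Ribosomal protein genes were named in THP-1 alone, 3 of 86 (3.49%, Wilson interval 1.19 to 9.76%) against 0 in RS4;11 (up to 4.28%). These intervals hold the shares of all protein-coding genes, 1.35% in THP-1 and 4.03% in RS4;11. The difference was not tested. RPS6 was named from a downstream flank, and the RPL41 peak named 5 genes. RPL35A was covered by H3K4me3 of both lines, and RPL41 and RPS6 were not. Receptor tyrosine phosphatases were also named in THP-1 alone, PTPRD and PTPRE of 20. RNA-binding RBM and SRSF genes had 7 of 66 (10.6%) in RS4;11 and 0 in THP-1, with RBM22, RBM25, RBM27, RBMS3, RBMXL1, SFRS2B and SFRS4. With an exon or intron flag required, the RS4;11 share was 3.03%. Mediator subunits had MED24, MED27 and MED30 against MED12L.

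Of the remaining lists, apoptosis genes gave 2 of 53 in RS4;11, BBC3 among them, and 0 in THP-1, and cell cycle genes gave CDK6, E2F5 and MCM3 against 0. Wnt genes gave BCL9, GSK3B and WNT2 against WNT7A. MicroRNA genes numbered 14 of 396 and 5 of 396, with MIR1977 in both, nearly all through a flank. AFF3 stood for the MLL fusion partners in RS4;11. Solute carriers, with older names included, numbered 9 and 6 of 392, RAB GTPases 2 and 1 of 62 and GPR orphan receptors 2 and 1 of 91. A single RS4;11 peak with H3K4me3 of both lines named the histone genes HIST1H1C, HIST1H2BB and HIST1H3C.

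Gene length went with being named. The share of protein-coding genes named by RS4;11 peaks was 1.89% in the shortest of 4 equal groups by span (95% Wilson interval 1.55 to 2.30%), 2.07%, 3.22% and 8.94% (8.18 to 9.76%) in the longest. For THP-1 the shares were 0.894% (0.669 to 1.19%), 0.795%, 1.11% and 2.58% (2.18 to 3.06%). The median span was 85132 bp for RS4;11-only genes, 60929 bp for THP-1-only genes and 175163 bp for shared genes, beside 27210 bp over all protein-coding genes. For genes named through an exon or intron it was 159372 bp in RS4;11 and 150345 bp in THP-1, and for genes named through a flank alone 29938 bp and 23028 bp. The long ion channel and adhesion genes, and the histone modifiers named in RS4;11, lie in the longest group by their medians. How far span alone sets their share was not tested.

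**Figure D5:**
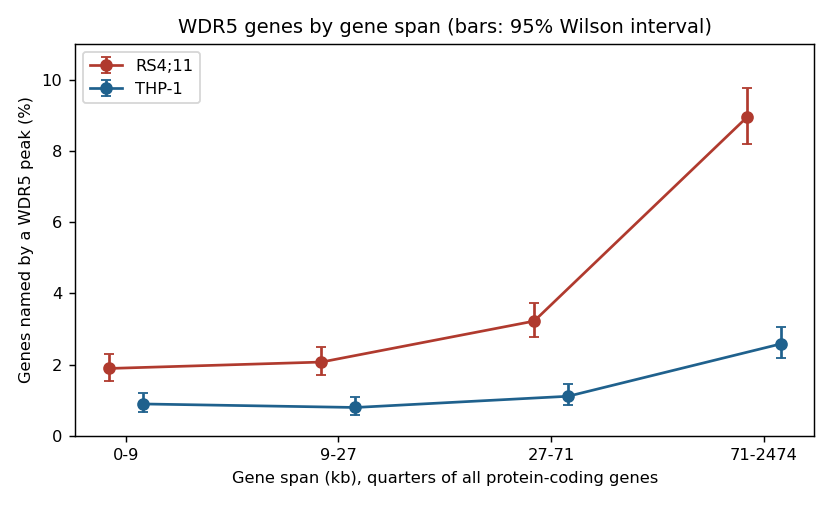
Percent of protein-coding genes named by a WDR5 peak in each line, in 4 equal groups by gene span in kb, with 95% Wilson intervals. The share rises to 8.94% in RS4;11 and 2.58% in THP-1 in the longest group.

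By chromosome, THP-1 had no WDR5 gene on chromosome 14, where RS4;11 had 22, and 1 on the X chromosome, where RS4;11 had 24. Both lines had their highest share on chromosome 8, with 7.34% of its protein-coding genes in RS4;11 and 3.39% in THP-1. RS4;11 also named 7.14% of the genes of chromosome 13. Why chromosome 14 is empty in THP-1 was not tested.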

How the data were processed

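The 4 libraries were 1 per line and antibody. Per the paper's methods, WDR5 chromatin was sonicated and H3K4me3 chromatin cut with MNase; the labels give sonication for all. The authors aligned reads uniquely with Eland, called peaks with MACS defaults and listed every RefSeq transcript within 20 kb of a peak, on hg19. The submitters' processing notes name CASAVA 1.7 and 1.8.2. The MACS version, an input control and repeat filters are not given in the sources used here. The deposited lists hold Yes or No flags (upstream, downstream, exon, intron) per pair of peak and transcript, without read counts or scores.

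Symbols were counted once per list, and 4 symbols turned into dates were restored from their accessions. Genes were matched to GENCODE v44 on GRCh37 (1102 of 1150). Python 3.11.15, pysam 0.24.0 and blastn 2.17.0 (copies, mitochondrial matches) were used, and counting was tested on simulated data. No test was run. Members and lists were chosen with earlier results of these data known. Named were the study's 7 targets, the shared genes by overlap and distance, the 12 genes per line with most peaks and the 12 nearest a 5′ end, up to 6 members per list and the 10 largest families; further genes were picked after their values were seen. Some list members, and 1 of the lists, are not reported here.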

Additional observations from a re-analysis of the deposited data

How the results depend on the processing

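No paired analysis was possible because each line and antibody has 1 sample. Fewer genes are counted when flanks are left out: 472 RS4;11-only, 18 shared and 132 THP-1-only genes with an exon or intron flag, and 71, 0 and 29 with an exon flag. The nearest protein-coding gene to each peak centre gave 629 RS4;11-only, 27 shared and 184 THP-1-only genes. Genes with overlapping peaks in both lines numbered 3 with an exon or intron flag. They numbered 6 without the peaks that met a repeat cut-off, an alternative chosen after seeing the data, and some of the 6 still lay in repeats. Genes with several peaks numbered 5 in RS4;11 and 2 in THP-1 at a minimum of 3 peaks, 30 and 2 with an exon or intron flag, and 2 in THP-1 without the repeated peaks. With an exon or intron flag, genes in any list numbered 62 and 20, from 123 and 39. By list, the RS4;11 share fell to 3.03% for RBM and SRSF genes, 1.59% for cell cycle, 1.54% for histones, 2.01% for ZNF, 0.253% for microRNA genes and 0.0% for olfactory receptors, and the THP-1 share to 0.0% for Mediator, hematopoietic factors, microRNA genes and the study's targets. Over the olfactory receptors named in any list the RS4;11 share was 6.5%. H3K4me3 over the WDR5 peak, in place of a named gene, covered 10.6% (RS4;11) and 9.47% (THP-1) of RS4;11-only genes and 10.5% and 14.1% of THP-1-only genes; within 1000 bp these were 14.3%, 13.3%, 18.4% and 23.1%. Among exon or intron genes 91.6% of RS4;11-only genes were in THP-1 H3K4me3 and 87.0% of THP-1-only genes in RS4;11 H3K4me3. Median spans were then 159372 and 150345 bp. The 22 other values of these results stayed close to those reported, and RS4;11 had more line-only genes than THP-1 under each alternative tried. Selecting stronger peaks was not run, since the files hold no score. Depth is unknown, so a line-only gene may be one below the peak threshold in the other line.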

Other observations

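Peaks of simple sequence were found at THP-1 genes that RS4;11 did not name. The word GAATG or CATTC filled at least 10% of the bases in 4 THP-1 peaks (1.78%), at MAMDC2 (36.2%), DEFB115 (39.1%), PCSK5 (22%) and DCC (16.4%), and in 3 RS4;11 peaks (0.427%), at MAMDC2 (57.8%), ANKRD26P1 (21.6%) and SENP5 (10.1%). DCC encodes a netrin receptor, PCSK5 a proprotein convertase and DEFB115 a defensin. The median over all peaks was 1.15% in RS4;11 and 1.12% in THP-1.

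The widest of the tandem repeat peaks lay at MIR1826 in THP-1: 2801 bp, 77.6% identical to itself at a shift of 343 bp. EXD3 (70.4%), ARHGEF18 (70.5%) and LILRB2 with LILRB5, leukocyte immunoglobulin-like receptors (63.3%), were further THP-1 genes named from such peaks. In RS4;11, ZNF180 and ZNF229 shared a peak of this kind (61.1%). All these genes were picked after their values were seen.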
